A study of Mus musculus with 8 samples.

Results

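The 9 genes described here are Cybb, Cyba, Ncf1, Ncf4, Hvcn1, Sod2, Cat, Gpx1 and Padi4. Their products belong to the superoxide-producing NADPH oxidase of phagocytes, to the enzymes that remove superoxide or hydrogen peroxide, and to extracellular trap release. They were chosen by name, and every non-control probe whose RefSeq transcript belongs to one of them was taken, which gave 13 of the 55681 probes on the array. All 9 were among the 21240 genes tested. Of these, 13083 had a gene symbol, and the rest were accessions without one, each counted as a gene. Shares and medians of all genes below are over this whole set. They were measured in the Ly6G+ fraction of bone marrow from wild-type (WT) mice and from mice labelled ATF3 KO, named for ATF3, a stress-induced transcription factor, with 4 arrays per genotype and both genotypes on a C57BL/6 background. The marrow was flushed from tibias and femurs and the cells were sorted with magnetic beads. Apart from the culture with 4-OHT named below, the labels give no treatment, allele, age or sex. They do not say that the samples came from separate animals. The p-values therefore measure only the spread between these samples, which may be technical. The sources differ on handling: per the design text the RNA was taken straight from the sorted cells, but 7 of the 8 sample descriptions name culture in methylcellulose with 4-OHT. The series title sets the comparison of the genotypes in a study of neutrophil migration.

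In neutrophils the oxidase lies dormant until the cell meets a microbe or a chemoattractant. Cytosolic subunits then join the membrane-bound flavocytochrome, which passes electrons from NADPH to oxygen and so makes superoxide. Dismutases turn superoxide into hydrogen peroxide, and catalase and the peroxidases remove the peroxide. The oxidants serve in killing and in the release of neutrophil extracellular traps, and loss of a subunit causes chronic granulomatous disease in humans.

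None of the 9 genes passed the test between ATF3 KO and WT. Of all genes tested, 95 passed (0.447%, of which 0.367% higher and 0.08% lower in ATF3 KO), the threshold being an adjusted p under 0.05 in limma with Benjamini-Hochberg adjustment over all genes. In the fit of every kept probe 0.208% passed, and 22.7% had an unadjusted p under 0.05. The members' adjusted p ran from 0.169 to 0.784. The measured differences ran from −0.33 to −0.05 on the log2 scale for 8 genes and were 0.57 for the brighter probe of catalase. The median of all genes was −0.11 on this scale, and 5 of the 9 lay below it. The sign was not stable for Cyba, Ncf4, Hvcn1, Gpx1 and Padi4, which were above 0 when arrays were scaled to the percentile over probes detected on all arrays. The genes that came closest were Cybb and Sod2, whose 4 ATF3 KO values all lay below the 4 WT values, and Cat.

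A single slide held all 8 arrays, WT in its first row and ATF3 KO in its second, and therefore the effects of row and genotype cannot be told apart. Each array's 75th percentile of signal averaged 186 ± 33.8 for WT and 141 ± 21.3 for ATF3 KO (SD, n = 4, two-sided exact permutation p = 0.0857), and the values below are log2 signals minus the log2 of that percentile. The single Atf3 probe read 0.73 ± 0.07 over the WT arrays and 1.24 ± 0.27 over the ATF3 KO arrays (SD, n = 4, limma adjusted p = 0.121). This is the direction opposite to the label, and the probe's place relative to the deleted part is not given in the sources used here, so that it checks nothing. Differences below are therefore between libraries labelled WT and ATF3 KO. Of 16 neutrophil markers 15 were measured, all above background on all 8 arrays. Their summed signal, in multiples of the 75th percentile, was 10508 to 13352 in WT and 12828 to 15489 in ATF3 KO. None of the 15 passed the test. At an unadjusted limma p under 0.05, 6 were higher and 0 lower, against 9.38% of all genes higher and 14.5% lower. Their median difference was 0.20, or 0.31 relative to that of all genes. Ly6g itself was not measured by a named probe. Of the 13 markers of the B lineage, all measured, the summed signal was 55.2 to 80.1 in WT and 110.5 to 124.7 in ATF3 KO, without overlap. None of these 13 passed the test alone (lowest limma adjusted p = 0.067), and 10 were higher at an unadjusted p under 0.05, against 9.38% of all genes. Jchain, which joins immunoglobulin chains, made up 8.05 to 27.9 of the sum in WT and 36.9 to 52.5 in ATF3 KO. Without it the sums were 46.4 to 61.5 and 67.7 to 87.8. Jchain was singled out after its values were seen. For monocytes and macrophages 10 of 11 markers were measured, with a sum of 255 to 285 in WT and 194 to 260 in ATF3 KO, and Vsig4 passed the test (−0.92, limma adjusted p = 0.048). The 8 markers of megakaryocytes and platelets had a median difference of 0.64, with 3 higher at an unadjusted p under 0.05 and overlapping sums (28.1 to 42.6 in WT, 31.8 to 86.5 in ATF3 KO). Of 9 markers of eosinophils and basophils 4 were higher and 1 lower at an unadjusted p under 0.05, with sums of 26.2 to 37.1 in WT and 33.8 to 54.8 in ATF3 KO. The granule genes Prg2 (0.71) and Prg3 (0.76) and the receptor gene Il5ra (0.41) did not overlap between the groups. Among all genes 4.13% were higher without overlap. Siglecf (−0.42) and Ccr3 (−0.24) of the same list were lower, with overlap. By sign 4 of the 9 were higher and 5 lower, with a median difference of −0.05. The genes named from this list were picked after their values were seen. For erythroid cells 9 of 10 markers gave sums of 1790 to 2248 and 1966 to 2550, and for T and NK cells 6 of 10 gave 24.2 to 27.7 and 18.2 to 25.2. No marker of these 4 lists passed the test. Phagocytes and B cells other than neutrophils also transcribe oxidase genes, and the part of any of these cells in the values below was not tested. Fewer cells of a type and less RNA per cell cannot be told apart in such bulk samples.

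RefSeq promoter sequences of GRCm38.p6 were at hand for 7 of the 9 genes, Ncf4 and Hvcn1 being the others. The 250 bases before the gene start are shown for Cybb (chrX:9469325-9469574, minus strand), Sod2 (chr17:13007589-13007838, plus strand) and Cat (chr2:103485154-103485403, minus strand), the genes with the smallest p, and for Padi4 (chr4:140774204-140774453, minus strand), the only one of the 7 with a match to the AP-1 or the ATF/CRE motif. Capitals mark CCAAT or its complement, GGGCGG or its complement, and TGAGTCA or its complement, and no matches of different motifs overlapped.
Cybb: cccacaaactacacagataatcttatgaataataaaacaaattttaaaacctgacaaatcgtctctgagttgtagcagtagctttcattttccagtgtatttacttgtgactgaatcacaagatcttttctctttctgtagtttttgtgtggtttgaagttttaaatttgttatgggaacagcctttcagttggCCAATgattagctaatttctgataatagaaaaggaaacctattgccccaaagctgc
Sod2: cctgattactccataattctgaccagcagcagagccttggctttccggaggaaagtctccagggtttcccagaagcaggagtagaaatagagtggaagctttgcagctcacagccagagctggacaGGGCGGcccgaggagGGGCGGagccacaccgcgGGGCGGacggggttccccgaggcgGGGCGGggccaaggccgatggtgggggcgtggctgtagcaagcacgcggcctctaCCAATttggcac
Cat: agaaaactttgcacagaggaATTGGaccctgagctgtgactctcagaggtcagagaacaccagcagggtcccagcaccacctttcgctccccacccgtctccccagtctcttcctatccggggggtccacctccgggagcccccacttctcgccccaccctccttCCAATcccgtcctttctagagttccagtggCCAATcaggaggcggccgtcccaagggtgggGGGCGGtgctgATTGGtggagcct
Padi4: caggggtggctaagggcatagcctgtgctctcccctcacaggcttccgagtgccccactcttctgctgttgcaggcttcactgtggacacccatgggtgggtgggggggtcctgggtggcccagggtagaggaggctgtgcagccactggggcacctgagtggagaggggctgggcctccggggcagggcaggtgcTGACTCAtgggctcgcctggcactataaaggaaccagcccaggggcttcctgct

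The search covered both strands of these windows for 7 motifs. The ATF/CRE motif TGACGTCA was in 0 of the 7 promoters and in 1.55% of all 32851 promoter windows. The AP-1 motif TGAGTCA was in 1 of 7, starting 54 bases before the start of Padi4, and in 4.46% of all windows. TGATGCAA, the composite of C/EBP and ATF, was in 0 of 7 (0.791% of all), the antioxidant response motif TGACNNNGC in 0 (10.2%) and the PU.1 motif GAGGAAGT in 0 (2.44%). CCAAT was found for Cybb, Sod2 and Cat and in 33.8% of all windows, and GGGCGG for Cyba, Ncf1, Sod2 and Cat and in 32.7%. The base composition differed between the windows, with 34% G and C before Cybb and 63.6% before Sod2. A match is a description of letters and not a binding site.

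The flavocytochrome in the membrane consists of the product of Cybb, the catalytic subunit, and that of Cyba, its stabilising partner. The Cybb probe read 5.19, 5.40, 5.18 and 5.28 in the WT samples and 5.10, 4.88, 5.10 and 4.65 in the ATF3 KO samples. Every ATF3 KO value lay below every WT value, with ATF3 KO replicate 4 the lowest. The difference of −0.33 (SE 0.12, 95% interval −0.61 to −0.05) did not pass over all genes (limma adjusted p = 0.17). It corresponds to 0.795 times the WT level, and relative to the median of all genes it was −0.22. Among all genes 10.9% had the 4 ATF3 KO values below the 4 WT values, so this separation is no rare one here. The size depended on the scaling, with −0.18 when the percentile was taken over probes detected on all arrays, −0.19 with quantile normalization and −0.20 in the deposited log2 table, where the groups were separated as well. Without ATF3 KO replicate 4 it was −0.24.

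Cyba was measured by 2 probes. The brighter one read 9.58 ± 0.09 over the WT arrays and 9.50 ± 0.20 over the ATF3 KO arrays (SD, n = 4), a difference of −0.08 (95% interval −0.35 to 0.19, limma adjusted p = 0.68). The dimmer one differed by −0.21 in the fit of all probes (95% interval −0.53 to 0.12, limma adjusted p = 0.38). On both probes the groups overlapped, with ATF3 KO replicate 3 at or above the WT mean and replicates 2 and 4 below every WT value. The brighter probe's difference was 0.074 with the percentile over probes detected on all arrays. An increase or a decrease of Cyba by more than 1.5-fold lies outside the interval of the brighter probe.

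**Figure D1:**
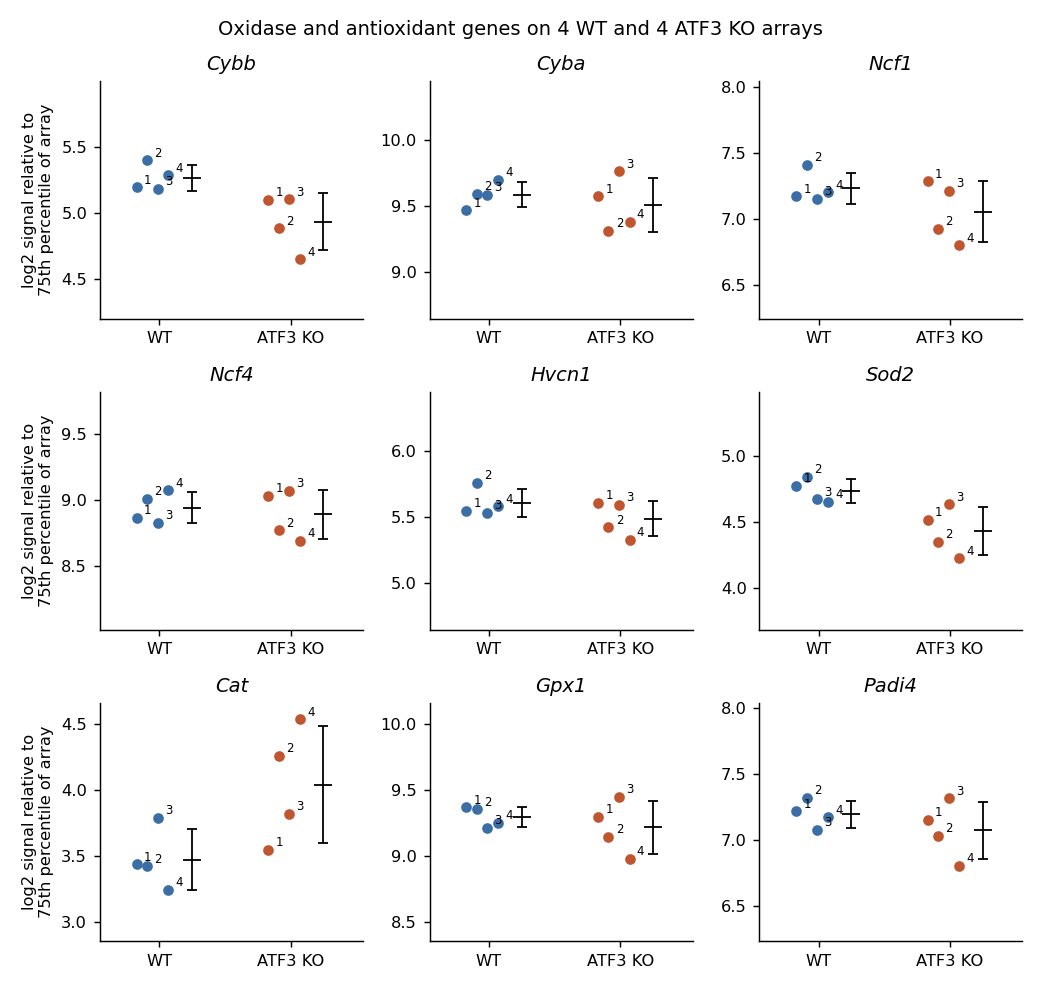
Log2 signal, scaled to the 75th percentile of its array, for each of the 9 genes on the 4 WT and 4 ATF3 KO arrays (points, numbered by replicate, with mean and SD as bars), each panel spanning the same height. The ATF3 KO points lie below all WT points for Cybb and Sod2 only, and the largest spread is that of Cat in ATF3 KO, from 3.55 to 4.54.

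The cytosolic subunits carry the oxidase's organiser and its phosphoinositide-binding partner. Ncf1, which encodes the organiser that bridges to the flavocytochrome when phosphorylated, read 7.17, 7.41, 7.15 and 7.20 in WT and 7.28, 6.92, 7.21 and 6.80 in ATF3 KO. ATF3 KO replicates 1 and 3 lay within the WT range and replicates 2 and 4 below it. The difference was −0.18 (95% interval −0.47 to 0.12, limma adjusted p = 0.38). Ncf4, whose product binds phosphatidylinositol 3-phosphate on phagosomes, ran from 8.82 to 9.07 in WT and from 8.69 to 9.07 in ATF3 KO. Its difference was the smallest of the 9, −0.05 (95% interval −0.32 to 0.22, limma adjusted p = 0.78), and its sign turned with the percentile over detected probes (0.10) and without ATF3 KO replicate 4 (0.014). Each of these genes had 1 probe.

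Hvcn1 encodes the voltage-gated proton channel that balances the charge the oxidase moves across the membrane. Its brighter probe ran from 5.53 to 5.76 in WT and from 5.33 to 5.61 in ATF3 KO, and the groups overlapped. The difference was −0.12 (95% interval −0.35 to 0.12, limma adjusted p = 0.47), and the second probe gave −0.20 (95% interval −0.42 to 0.02, limma adjusted p = 0.24). The sign of the first turned with quantile normalization (0.020) and with the percentile over probes detected on all arrays (0.035), whereas the second stayed below 0 under its 18 alternatives. Within an array the first probe minus the second was 0.035 ± 0.09 over the WT arrays and 0.12 ± 0.07 over the ATF3 KO arrays (SD, n = 4, exact permutation p = 0.229).

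Sod2, the manganese superoxide dismutase of mitochondria, read 4.77, 4.84, 4.67 and 4.65 in WT and 4.52, 4.35, 4.64 and 4.22 in ATF3 KO. All 4 ATF3 KO values lay below the WT values, the nearest being ATF3 KO replicate 3 and WT replicate 4. The difference of −0.30 (SE 0.11, 95% interval −0.56 to −0.05) did not pass over all genes (limma adjusted p = 0.17). It was −0.15 with the percentile over probes detected on all arrays, −0.16 with quantile normalization and −0.175 in the deposited log2 table. Without ATF3 KO replicate 4 it was −0.24. Gpx1, the cytosolic glutathione peroxidase that reduces hydrogen peroxide, ran from 9.21 to 9.37 in WT and from 8.98 to 9.45 in ATF3 KO. Its ATF3 KO values spanned the whole WT range, and the difference was −0.08 (95% interval −0.34 to 0.18, limma adjusted p = 0.66), or 0.072 with the percentile over detected probes.

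Catalase, the peroxisomal enzyme that splits hydrogen peroxide, was measured by 2 probes of the same transcript, and these did not follow each other. The brighter probe read 3.44, 3.42, 3.79 and 3.24 in WT and 3.55, 4.26, 3.82 and 4.54 in ATF3 KO. It was highest in ATF3 KO replicates 2 and 4, and the groups overlapped through WT replicate 3 and ATF3 KO replicate 1. The difference was 0.57 (SE 0.21, 95% interval 0.09 to 1.05, limma adjusted p = 0.17), or 1.48 times the WT level. The dimmer probe read −0.19, −0.40, −0.38 and −1.01 in WT and 0.14, −0.88, −0.73 and −1.14 in ATF3 KO. It was highest in ATF3 KO replicate 1 and lowest in ATF3 KO replicate 4. Its difference was −0.15 (95% interval −0.77 to 0.47, limma adjusted p = 0.73). The dimmer probe thus did not repeat the higher estimate of the brighter one. Its own interval spans 0, so it gives no direction for this gene.

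Both catalase probes were above background on all 8 arrays, with processed signals of 1427 to 2945 for the brighter and 51.0 to 189 for the dimmer. Over the 8 arrays their values had a Pearson correlation of −0.51, against 0.78 for the 2 probes of Cyba, 0.77 for Hvcn1 and 0.93 for Padi4. The gap between the differences of the 2 catalase probes was 0.72. Of 2629 genes with 2 measured probes, 49 (1.86%) had a gap at least as large, and the median gap was 0.10. The brighter probe minus the dimmer was 3.97 ± 0.30 over the WT arrays and 4.69 ± 0.97 over the ATF3 KO arrays (SD, n = 4). This did not differ beyond the spread (two-sided exact permutation p = 0.229, adjusted p = 0.381 over the 4 genes with 2 probes).

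**Figure D2:**
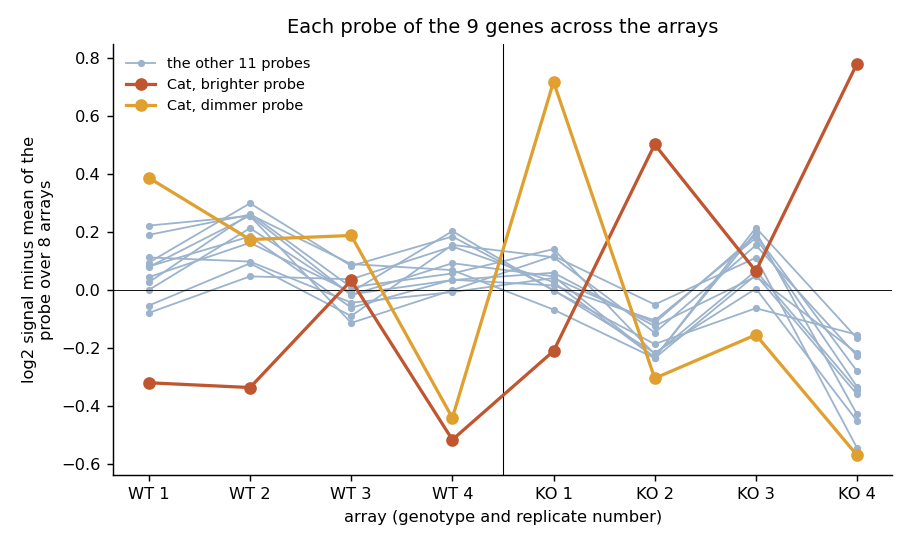
Log2 signal of each of the 13 probes minus its own mean over the 8 arrays, by array, with lines joining only the values of a probe, since replicates have no order. The 11 probes of the other 8 genes each have their lowest value in ATF3 KO replicate 2 or 4, where the brighter Cat probe is highest, while the dimmer Cat probe is highest in ATF3 KO replicate 1.

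Padi4 encodes the deiminase that citrullinates histones during the release of extracellular traps. Its brighter probe read 7.21, 7.32, 7.07 and 7.17 in WT and 7.15, 7.03, 7.31 and 6.80 in ATF3 KO. The groups overlapped, and the lowest value was again that of ATF3 KO replicate 4. The difference was −0.12 (95% interval −0.40 to 0.16, limma adjusted p = 0.53), or 0.031 with the percentile over detected probes. The dimmer probe gave −0.18 (95% interval −0.55 to 0.19, limma adjusted p = 0.48).

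The intervals of 7 of the 9 genes lay within a 1.5-fold change in either direction, and those of Cybb and Cat did not. At an unadjusted limma p under 0.05, Cybb and Sod2 were lower and Cat was higher, against 23.9% of all genes in either direction, 14.5% lower and 9.38% higher. The groups did not overlap for 2 of the 9, against 15.1% of all genes, 10.9% lower and 4.13% higher. The members' median difference was −0.12, which relative to that of all genes was −0.0091.

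**Figure D3:**
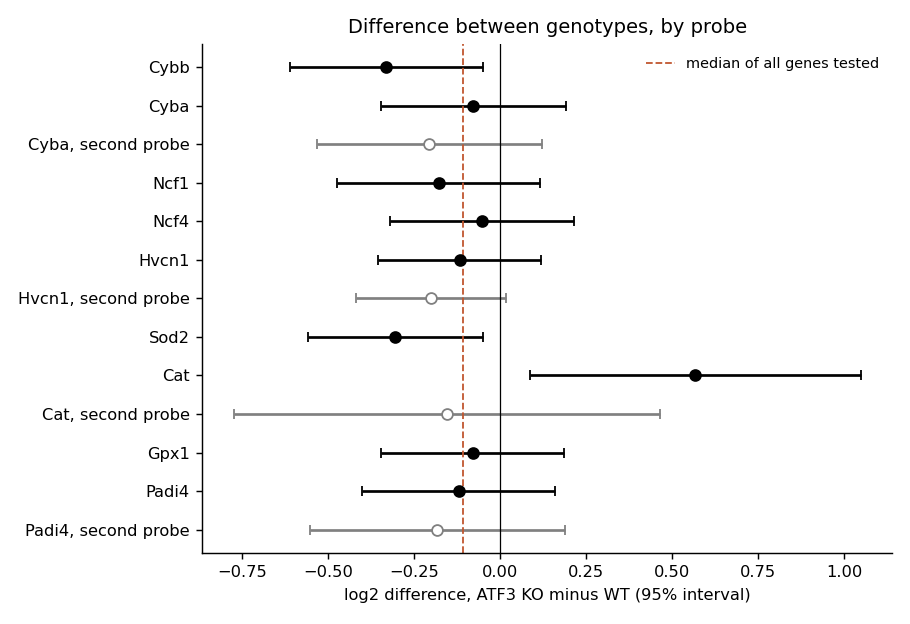
Log2 difference, ATF3 KO minus WT, with its 95% interval for the probe that stands for each gene (filled) and for second probes (open), beside the median of all genes tested at −0.11 (dashed). The intervals of Cybb and Sod2 lie below 0 and that of the brighter Cat probe above it, before adjustment over all genes.

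Apart from catalase the genes were positively correlated with each other over the arrays. Over the 8 arrays the 28 pairwise Pearson correlations among the other 8 genes ran from 0.60 to 0.98, with a median of 0.83. Those of Cat's brighter probe with the other 8 ran from −0.93 to −0.64. These are descriptions over 8 arrays that share their scaling. Correlations among all genes were not computed, so the values do not show a pattern particular to these genes. ATF3 KO replicate 4, the array with the lowest 75th percentile of signal (112.5), gave the lowest value on 9 of the 11 probes of the other genes, and ATF3 KO replicate 2 on the other two. Of 12549 named genes, with RIKEN, Gm and LOC names left out, Cnot11 (r = 0.996), Clptm1l (0.995) and Dglucy (0.995) had the pattern most like that of Cybb. For Padi4 they were Hps6, Supt4b and Maf1 (r = 0.994 each), and for the brighter Cat probe Ppargc1a (0.977), Olfr1320 (0.973) and Mapt (0.972).

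Other genes of the oxidase and of antioxidant defence were set beside the 9. In 5 lists 55 of 62 genes were measured, of which 1 passed the same test as lower and none as higher (limma with Benjamini-Hochberg adjustment over all genes), a share of 1.82% against 0.447% of all genes. At an unadjusted p under 0.05, 12 of the 55 were lower and 1 higher (23.6% in either direction). Among all genes the share was 23.9% in either direction, 14.5% lower and 9.38% higher. The shares in either direction were thus alike, but the lists leaned more to the lower side than all genes did. The groups did not overlap for 8 of the 55 (14.5%), all lower in ATF3 KO. Among all genes the share was 15.1% in either direction and 10.9% lower. The gene that passed was Me1, the malic enzyme that supplies NADPH, with −2.24 ± 0.09 over the WT arrays and −3.08 ± 0.28 over the ATF3 KO arrays (SD, n = 4, difference −0.84, SE 0.14, limma adjusted p = 0.0495). It was above background on all 4 WT arrays but on only 2 ATF3 KO arrays, so the WT arrays carried it through the filter, its ATF3 KO mean includes signal at background and the size of its difference is uncertain. It passed in 3 of 11 other ways of processing (median scaling, array weights and the deposited log2 table) and lost the call in the other 8. It also lost it in 7 of the 8 fits that left out an array, all but that without ATF3 KO replicate 3. Me1 had 3 probes on the array, and the call rests on the brightest one kept. Its other probes are not described here.

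Of the 13 measured partners of the oxidase 0 passed, and their median difference was −0.12. The kinase gene Pak1, whose product is an effector of Rac, differed by −0.34 (limma adjusted p = 0.16), Noxo1 by −0.31 (0.20) and Vav1, an exchange factor for Rac, by −0.24 (0.25). Nox4, another catalytic subunit of the NOX family, differed by 0.65 (0.18). Of the 12 genes of superoxide and peroxide removal 0 passed and the median was −0.17. The lowest p was that of Gpx3, the secreted glutathione peroxidase (−0.65, limma adjusted p = 0.11), followed by Prdx1, a peroxiredoxin (−0.42, 0.13), Gpx8 (−0.73, 0.15) and Sod3, the extracellular dismutase (−0.53, 0.17). Nox4, Noxo1, Gpx8 and Sod3 were dim, with WT means of −2.08, −1.84, −1.30 and −2.17, though above background on all 8 arrays. The sizes of their differences are therefore less certain than those of bright genes. For Gpx3, Prdx1 and Sod1, the cytosolic dismutase, all 4 ATF3 KO values lay below the WT values, as they did for Pak1 among the partners.

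Among the 17 genes of the glutathione and thioredoxin systems the median difference was −0.18. After Me1 the smallest p were those of Idh1 (−0.25, limma adjusted p = 0.18), the sulfiredoxin gene Srxn1 (−0.39, 0.18) and the thioredoxin reductase gene Txnrd1 (−0.24, 0.18). The groups did not overlap for Me1, Idh1 and Txnrd1. Of the 10 measured genes of the pathway of NRF2, the regulator of antioxidant genes, 0 passed and the median was −0.15. Heme oxygenase, Hmox1, differed by −0.37 (limma adjusted p = 0.12) without overlap of the groups, Sqstm1 by −0.69 (0.22), the ferritin gene Ftl1 by 0.28 (0.24) and Nfe2l2, which encodes NRF2, by −0.23 (0.27). With normexp background correction Hmox1 and Prdx1 passed and Me1 did not. Of the deiminase genes other than Padi4, Padi3 differed by −0.30 (limma adjusted p = 0.25), Padi2 by 0.13 (0.75) and Padi1 by −0.05 (0.88).

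**Figure D4:**
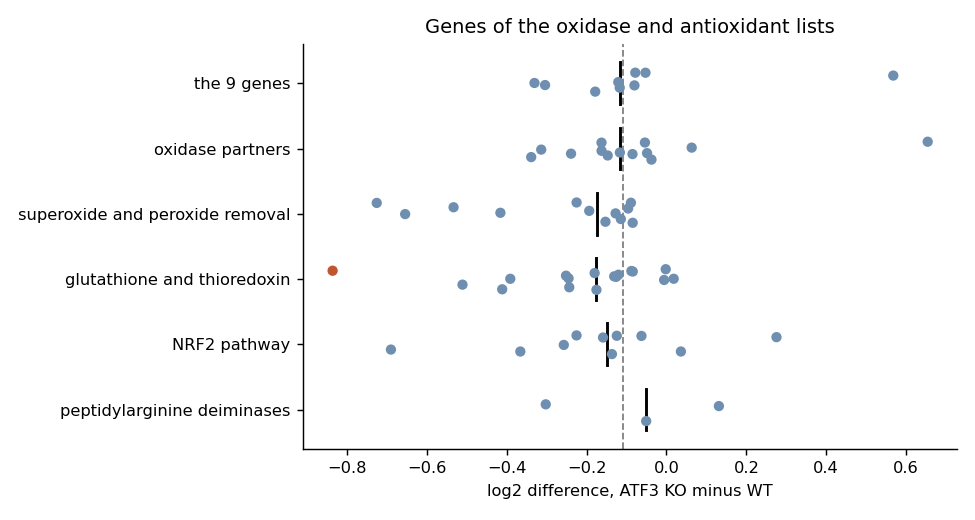
Log2 difference, ATF3 KO minus WT, of the 9 genes and of the measured genes of 5 lists (points, spread vertically for legibility), with the median of each list (bar) and that of all genes at −0.11 (dashed). The only point that passed the test (brown-red) is Me1 at −0.84.

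**Figure D5:**
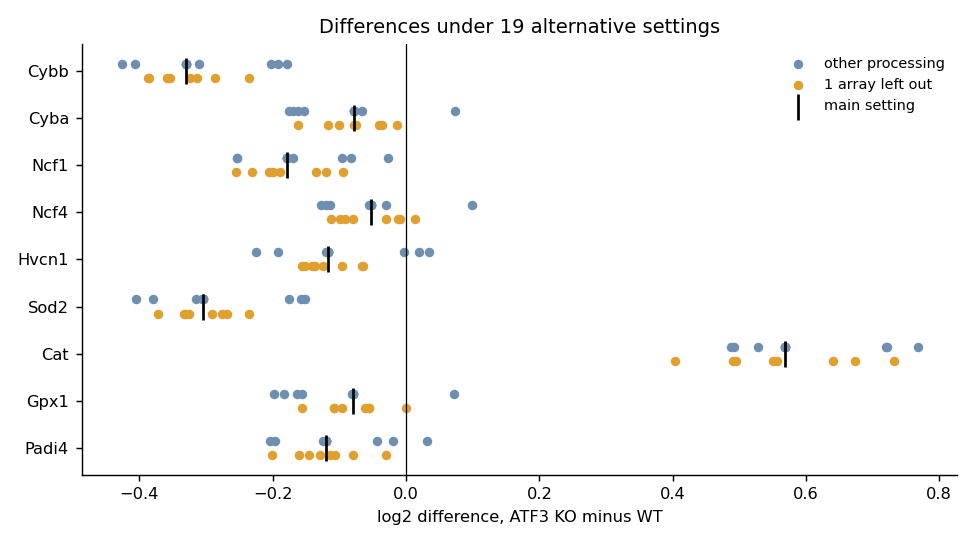
Log2 difference, ATF3 KO minus WT, of the 9 genes under the main setting (bar), under 11 other ways of processing (blue) and with each of the 8 arrays left out (yellow). Cybb, Sod2 and Ncf1 stay below 0 and Cat above it at every point, whereas Cyba, Ncf4, Hvcn1, Gpx1 and Padi4 reach the other side of 0.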

How the data were processed

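Cy3-labelled RNA was hybridised to single-colour Agilent mouse arrays. The deposited scanner files hold spot intensity from Agilent Feature Extraction (10.9.1.1 per the file headers, 10.10 per the submitters' processing notes), background-subtracted and detrended within each array. The deposited table of the series holds log2 values, and the labels state neither their scaling nor their centring. Each of its columns correlated at 0.998 to 1 with the log2 median signal of its own array (column medians 6.15 to 6.16), and it served as an alternative.

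Control and outlier-flagged spots were left out (98 to 159 per array), spots of a probe were averaged, and log2 signal was taken minus the 75th percentile of the array over 55681 probes (above background in 50.02% of probe values). This share lay just above a planned limit. Below it, the percentile over probes detected on all arrays would have been the main scaling. Probes above background on at least 4 of 8 arrays were kept, the brightest standing for its gene. Transcript accessions, versions dropped, were matched to RefSeq symbols of GRCm38.p6 (27235 probes named, 28446 not). The headers name mm9, so no probe coordinates are given. limma 3.58.1 in R 4.3.3 (lmFit, eBayes, genotype as the only term) was tested on simulated data. Figures were drawn with matplotlib 3.10.9. The alternatives were other background correction (normexp, offset 50, on the median signal since the scanner files used here hold no mean signal column), scalings, dim-probe filters, variance models, array weights, every probe tested, a block for replicate number, the deposited table and leaving out each array. No 2 arrays held identical values (smallest root mean square log2 difference within a group 0.282), so none is a copy of another. This cannot show that the samples came from separate animals. Each array was counted as 1 sample, and their number limits the precision. The members, the lists and the comparison of probe pairs were chosen with earlier results of these data known. The genes named are the 9 members, Atf3, the 4 genes with the smallest p of each list, and the 3 genes most like Cybb, Cat and Padi4. Vsig4, Sod1, Jchain, Prg2, Prg3, Il5ra, Siglecf and Ccr3 were named after their values were seen.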

Additional observations from a re-analysis of the deposited data

How the results depend on the processing

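None of the 9 genes passed the test in any of the 19 alternatives (lowest limma adjusted p of a member 0.085, without ATF3 KO replicate 3). Cybb, Sod2 and Ncf1 were lower and the brighter Cat probe higher in all 19, with ranges of −0.43 to −0.18 for Cybb, −0.40 to −0.15 for Sod2, −0.26 to −0.03 for Ncf1 and 0.40 to 0.77 for Cat. With the percentile over probes detected on all arrays the median difference of all genes was 0.04, and the sign turned for Cyba (0.074), Ncf4 (0.10), Hvcn1 (0.035), Gpx1 (0.072) and Padi4 (0.031). It also turned for Hvcn1 with quantile normalization (0.020), for Ncf4 without ATF3 KO replicate 4 (0.014, with −0.11 to 0.014 over the arrays left out) and for the dimmer Cat probe without that array (0.0094, with −0.42 to 0.0094). Changing the percentile moves the difference of every gene by the same amount. The members' median relative to that of all genes was therefore −0.0091 under both scalings. The cause of the other turns was not tested.

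The count of all genes that passed, 95 in the main setting, was 257 with normexp, 31 with quantile normalization, 217 with median scaling, 44 with the percentile over detected probes, 10 with no filter, 58 with every kept probe tested, 192 with trend and robust variances, 149 with the deposited log2 table, 148 with array weights, 72 with the replicate block and 9 to 234 with an array left out. The share higher, 82.1% in the main setting, was 62.3% with normexp, 71.0% with quantile normalization, 70.8% with trend and robust variances and 40% with no filter. With an array left out it ran from 33.3% (3 of 9, without WT replicate 1) to 84.7%, with 53.8% without WT replicate 3. The 1 pathway gene became 2 with normexp, 0 with quantile normalization, the percentile over detected probes, the stricter filter, no filter, every kept probe tested, trend and robust variances or the replicate block, and 0 to 2 with an array left out. Without ATF3 KO replicate 3 the 2 were Me1 and Nox4, and each other fit that left out an array called 0. The difference in the 75th percentile of signal, −45.1, was −4.32 for the median signal and −57.0 to −35.4 with an array left out, where it passed without WT replicate 4 (exact permutation p = 0.0286). Same-numbered arrays of the genotypes had correlations of deviations of 0.19, −0.13, −0.27 and 0.18, so the numbers were not taken to pair the samples. The signal over background was no limit for the 9 genes, all above background on all arrays.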
